A study of Rattus norvegicus with 16 samples.

Results

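Female Wistar Han rats whose mothers had received genistein together with vinclozolin were set against rats of untreated mothers, in mammary gland RNA taken at postnatal day (PND) 50. The comparison holds 2 arrays of the mixture group and 2 of the control group, 4 of the 16 arrays of the series, and these were chosen by their sample titles alone. RNA was extracted from single glands and combined so that 5 animals, 1 female per litter, share an array. Mothers in all groups were 8 weeks old, and the treated ones were gavaged once a day from gestational day 1 until weaning at PND 21, at 1 mg per kg of body weight per day, a dose the labels state once for the compounds given alone or combined. Other groups set beside the comparison are genistein alone and vinclozolin alone at PND50, and the mixture and its untreated controls at PND35, with 2 pools each. All animals ate a purified diet free of phytoestrogens, the controls are labelled as untreated with no vehicle named, and the labels do not give the estrous stage of the pooled females.

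Soy contains genistein, an isoflavone able to bind estrogen receptors. Vinclozolin, a fungicide of fruit and vine crops, acts as an antiandrogen through its metabolites. The mammary gland of the female rat grows as a branching duct into a fat pad around puberty. Ovarian estrogen drives this growth largely through paracrine factors: epithelial amphiregulin acts on EGF receptors of the stroma, and stromal hepatocyte growth factor acts back on its receptor Met in the ducts. Around PND50 the gland of a rat is dense in terminal end buds turning into alveolar buds.

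The authors' deposited values are log2 intensities of Affymetrix probe sets, and every level below is on that scale, where a difference of 1 is a doubling. Between the 2 pools of a group the values correlated at 0.9962 for the mixture and 0.9965 for the controls over all 27342 probe sets. Defining markers of the labelled tissue were present in all 4 pools. Lalba, the whey protein alpha-lactalbumin, measured 12.59 and 12.72 in mixture pools, against 12.15 and 12.13 in control pools, and the luminal keratin Krt18 measured 8.94 and 8.88 against 8.65 and 8.78. Adipoq, the fat cell hormone adiponectin, measured 12.72 and 12.59 in mixture pools and 12.68 and 12.58 in control pools. With 2 arrays per group the number of arrays limits the precision, p-values measure the spread between pools rather than between animals, and in whole tissue fewer cells of a type and less RNA per cell cannot be told apart.

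Of 11796 genes tested with limma, 1 was higher in mixture pools at an adjusted p below 0.05 (0.00848% of the genes tested) and 0 were lower. That gene was Met. At an unadjusted p below 0.05 there were 358 higher genes (3.03%) and 516 lower genes (4.37%), 874 in all, where 590 would be called with no difference. The median standard error (SE) of a log2 fold change was 0.0941, and the median fold change over all genes was -0.017. Both mixture pools lay above both control pools for 16.8% of the genes and below them for 24.6%. Adding a fold change of at least 1.5 left 37 higher genes (0.314%) and 33 lower ones (0.28%). The 12 genes of smallest p in each direction under these 2 conditions are given below with Met, and none of those 24 passed the test.

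**Figure D1:**
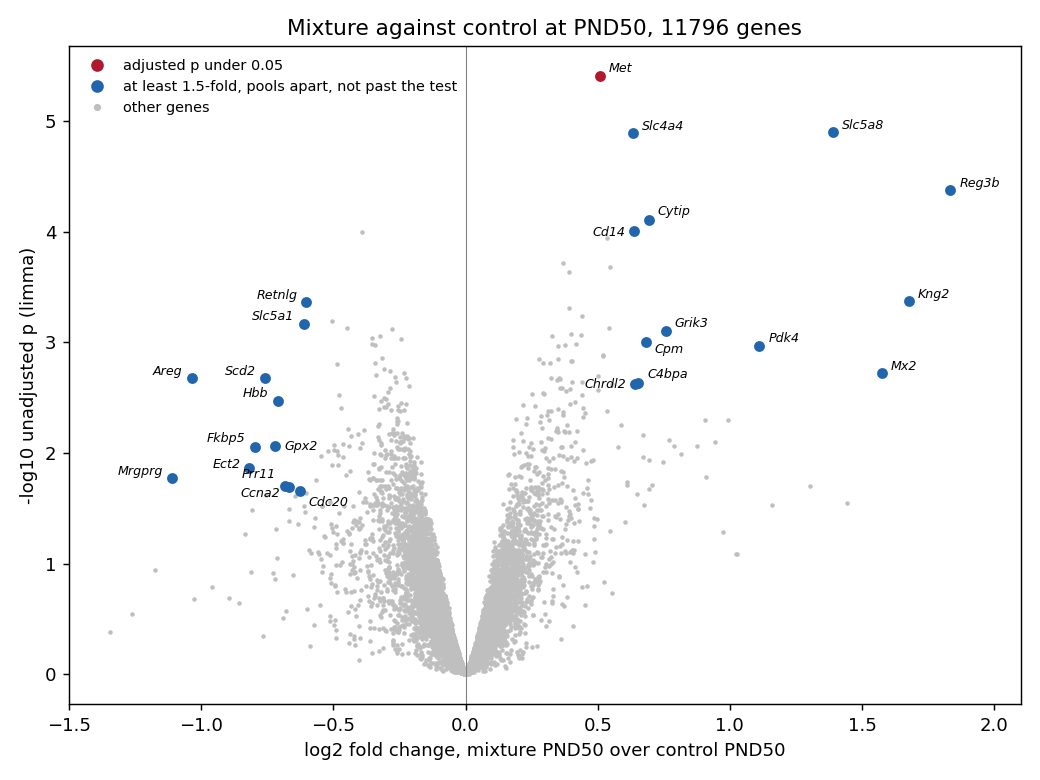
Each point is 1 of 11796 genes, with the log2 fold change of the mixture over the control at PND50 on the horizontal axis and -log10 of limma's unadjusted p on the vertical axis. Met, in red, is the gene past an adjusted p of 0.05; the blue points are the 24 leading genes, past 1.5-fold with pools apart, and Slc5a8, Slc4a4 and Reg3b stand nearest to Met in p.

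Met encodes the receptor tyrosine kinase of hepatocyte growth factor. Its level was 9.60 and 9.62 in mixture pools, against 9.11 and 9.09 in control pools. The groups did not overlap, and pools of 1 group differed by far less than the groups did. Met rose 1.42-fold (log2 fold change 0.51, SE 0.06, adjusted p = 0.046 by limma). With the single compounds Met lay near the control level: it measured 9.05 and 9.10 with genistein alone and 9.15 and 9.13 with vinclozolin alone. In tests that reuse the same mixture pools, Met was higher than with genistein alone (0.53, SE 0.06, adjusted p = 0.0281) and than with vinclozolin alone (0.47, SE 0.06, adjusted p = 0.0264). At PND35 it measured 8.96 and 8.97 in mixture pools and 8.83 and 8.91 in control pools, and the difference between the effects at the 2 ages did not pass the test (0.41, SE 0.09, adjusted p = 0.224). Met passed in 8 of 12 other settings of the fit (adjusted p 0.00973 to 0.114). Leaving out any of the 4 pools ended the call, with a log2 fold change between 0.50 and 0.52 and an adjusted p of 0.283 or 0.506 without a control pool and of 0.186 or 0.883 without a mixture pool. The ligand gene Hgf, chosen after its values were seen, measured 8.15 and 7.97 in mixture pools and 7.96 and 7.86 in control pools, and the difference did not pass the test (0.15, SE 0.10, adjusted p = 0.769).

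**Figure D2:**
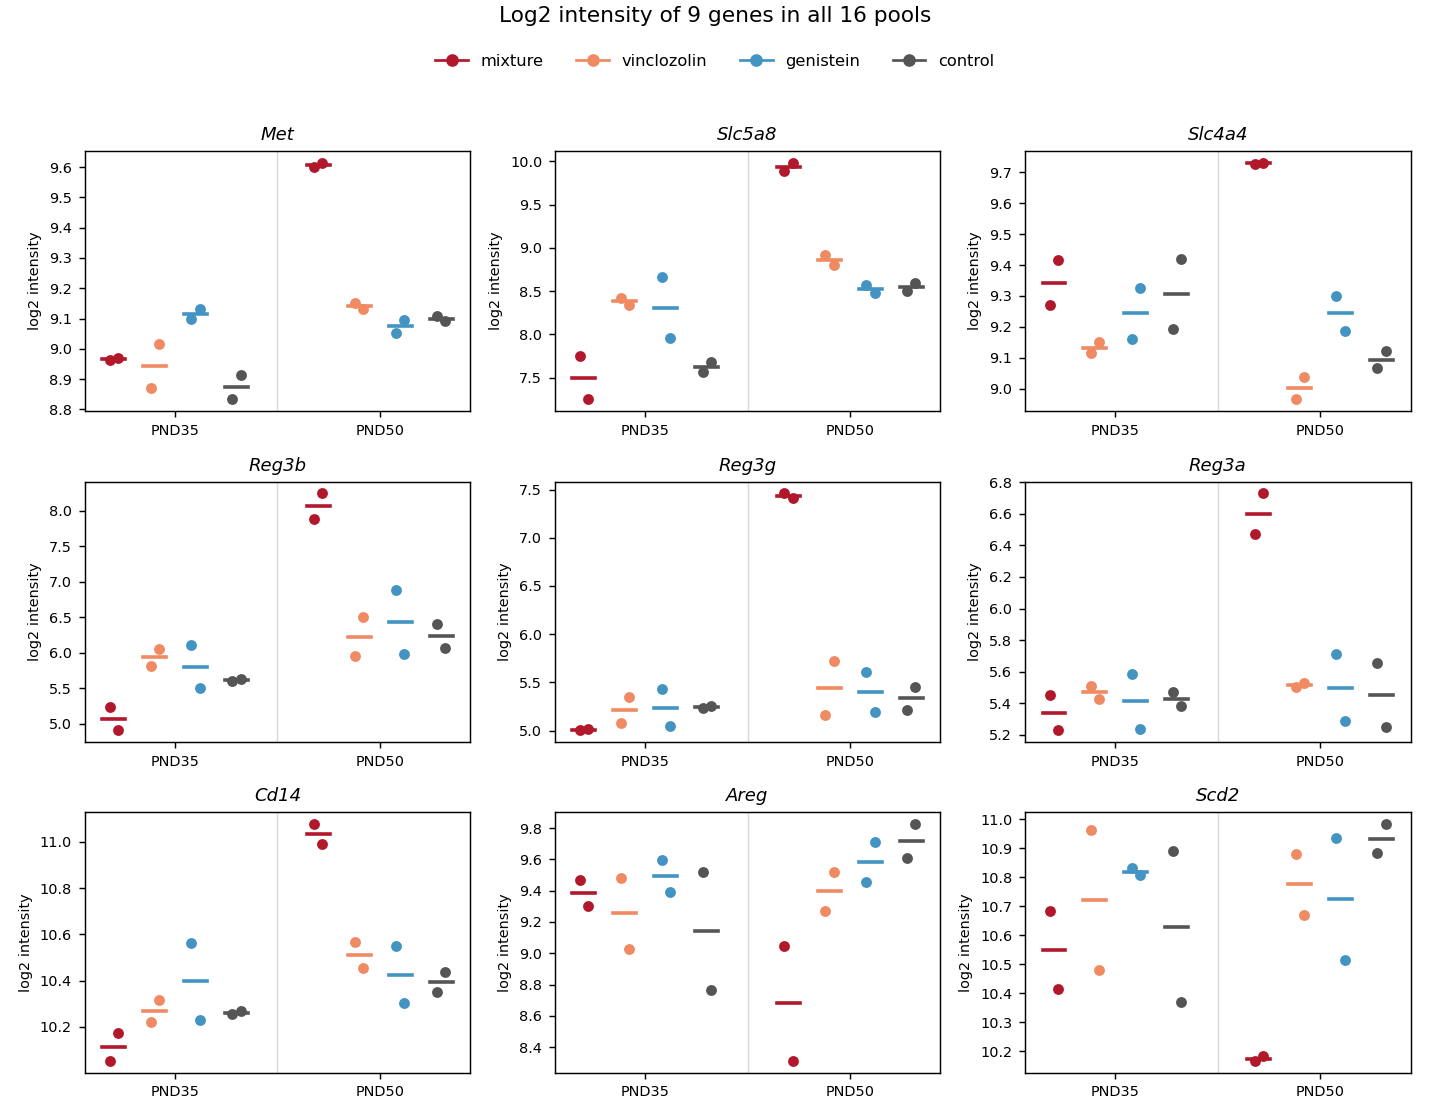
Log2 intensity of 9 genes in each of the 16 pools, grouped by age and, within an age, ordered as mixture, vinclozolin, genistein and control. Points are pools and bars are the means of 2 pools. For Met, Slc5a8, Slc4a4, Reg3b, Reg3g, Reg3a and Cd14 both mixture pools at PND50 lie above the other pools of that age, and for Areg and Scd2 below them.

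Among the 25 leading genes were 3 sodium-coupled transporters of epithelial membranes. Slc5a8, which carries lactate, pyruvate and short-chain fatty acids into cells, measured 9.89 and 9.99 in mixture pools, against 8.51 and 8.59 in control pools. Slc4a4, a sodium bicarbonate cotransporter, measured 9.73 in both mixture pools against 9.07 and 9.12 in control pools. In both genes the groups were wide apart, with log2 differences of 1.39 (SE 0.19) and 0.64 (SE 0.09), but each had an adjusted p of 0.0508 and so missed the threshold. In 12 other settings Slc5a8 passed 8 times (adjusted p 0.000355 to 0.0914) and Slc4a4 6 times (0.0194 to 0.0914). Slc5a1, the sodium glucose transporter SGLT1, went the other way, at 6.99 and 6.77 in mixture pools, against 7.49 and 7.50 in control pools (-0.61, SE 0.13, adjusted p = 0.37).

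Against the single compounds, single genes among these 3 passed the test, each in 1 comparison that reuses the same mixture pools. Slc5a8 was higher with the mixture than with genistein alone, which gave 8.57 and 8.48 (1.42, SE 0.19, adjusted p = 0.0424). Against vinclozolin alone, at 8.92 and 8.80, the difference of 1.08 (SE 0.19) did not pass (adjusted p = 0.138). Slc4a4 was higher with the mixture than with vinclozolin alone, which gave 8.97 and 9.04 (0.73, SE 0.09, adjusted p = 0.0238). Slc5a1 was lower with the mixture than with vinclozolin alone, which gave 8.04 and 7.75 (-1.02, SE 0.13, adjusted p = 0.0264). Vinclozolin alone had Slc5a1 levels above both control pools, the mixture below them, and neither difference from the controls passed the test.

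Of the 12 leading higher genes Reg3b had the largest fold change. Reg3 proteins are small secreted C-type lectins, made by gut epithelium of mice and rats, where they bind and kill bacteria, and by inflamed pancreas. Reg3b measured 7.88 and 8.25 in mixture pools, against 6.40 and 6.06 in control pools, without overlap. The log2 difference of 1.83 (SE 0.29) is 3.57-fold on the linear scale, and its adjusted p was 0.125. Reg3g and Reg3a fell under the filter on low values, a mean of 5.661 over all arrays, and were looked at after their values were seen. Reg3g measured 7.46 and 7.41 in mixture pools, against 5.21 and 5.45 in control pools. All 14 other pools of the series lay between 5.00 and 5.72. Reg3a measured 6.47 and 6.73 in mixture pools, against 5.66 and 5.25 in control pools, and the other pools of the series lay between 5.23 and 5.71.

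When all 14324 named genes were tested without the filter, Reg3g rose 4.30-fold (log2 fold change 2.11, SE 0.19, adjusted p = 0.00147) and Reg3a rose 2.22-fold (1.15, SE 0.17, adjusted p = 0.0424). They were among 6 genes called in that test (0.0419%), with Met, Slc5a8, Slc4a4 and the olfactory receptor gene Or8b51. The comparisons of Reg3g with the single compounds that follow reuse the same mixture pools. Reg3g was also higher than with genistein alone (2.04, SE 0.19, adjusted p = 0.00208; 5 genes called without the filter, 0.0349%) and than with vinclozolin alone (1.998, SE 0.19, adjusted p = 0.00261; 6 genes called, 0.0419%). Without the filter it kept an adjusted p below 0.05 with each of the 4 pools left out (0.0157 to 0.0483), whereas Reg3a lost its call without any of them (0.0781 to 0.747). Control levels this low may hold little beyond background, so these folds are lower bounds if they do. Reg1a, which encodes another secreted lectin and lies between Reg3a and Reg3g, measured 4.82 and 4.94 in mixture pools and 4.68 and 4.64 in control pools (0.22, SE 0.16, adjusted p = 0.845 without the filter). Reg4, a more distant relative, had a difference of 0.07 (SE 0.11, adjusted p = 0.951 without the filter).

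The Reg3 genes lie in 1 cluster on rat chromosome 4, in the order Reg3b, a Reg3b pseudogene, Reg3a, Reg1a, a long noncoding RNA gene and Reg3g in RefSeq's annotation of the assembly GRCr8. Their promoters are shown because in all 3 genes both mixture pools at PND50 lay above both control pools. Reg3b itself did not pass without the filter (adjusted p = 0.0702 by limma). Each holds 300 bases around the annotated start (the second of the starts listed for Reg3a), 5′ to 3′ on the gene's own strand, with the letters ATAAAA of a TATA-like box in capitals.
Reg3b, chr4:112419526-112419825, plus strand: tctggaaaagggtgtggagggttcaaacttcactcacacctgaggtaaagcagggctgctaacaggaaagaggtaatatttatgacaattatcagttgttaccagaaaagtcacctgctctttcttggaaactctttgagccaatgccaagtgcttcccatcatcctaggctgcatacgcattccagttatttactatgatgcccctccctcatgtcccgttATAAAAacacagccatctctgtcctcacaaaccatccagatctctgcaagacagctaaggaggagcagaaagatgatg
Reg3a, chr4:112430174-112430473, plus strand: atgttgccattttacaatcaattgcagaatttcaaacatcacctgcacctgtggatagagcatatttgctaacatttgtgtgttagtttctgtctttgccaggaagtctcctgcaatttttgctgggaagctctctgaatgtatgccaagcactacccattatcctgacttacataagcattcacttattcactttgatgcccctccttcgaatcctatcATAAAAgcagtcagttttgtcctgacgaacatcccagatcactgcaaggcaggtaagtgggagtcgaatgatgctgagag
Reg3g, chr4:112484689-112484988, minus strand: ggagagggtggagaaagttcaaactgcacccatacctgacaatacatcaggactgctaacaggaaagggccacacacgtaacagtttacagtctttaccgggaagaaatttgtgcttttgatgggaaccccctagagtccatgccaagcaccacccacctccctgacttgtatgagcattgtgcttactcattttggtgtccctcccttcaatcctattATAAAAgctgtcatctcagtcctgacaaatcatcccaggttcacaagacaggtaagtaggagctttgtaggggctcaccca
The box begins 28, 30 and 31 bases before the start in Reg3b, Reg3a and Reg3g, where the Reg3a distance holds for the second start listed. Pairwise alignment gave 73.7% identical bases between Reg3b and Reg3a, 72.9% between Reg3b and Reg3g and 75.6% between Reg3a and Reg3g. The letters ATAAAA occur on either strand in 20.4% of 27457 rat promoters of this length. That share counts the letters anywhere in the first promoter listed per gene, so it is no background for the position of the box. The genes resemble each other, and whether their probe sets share signal was not tested.

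Other leading genes act in innate defence or in leukocytes. Cd14, the coreceptor of bacterial lipopolysaccharide, measured 11.08 and 10.99 in mixture pools, against 10.35 and 10.44 in control pools (0.64, SE 0.11, adjusted p = 0.167). Cytip, a scaffold protein of leukocytes that controls adhesion, measured 8.79 and 9.06 against 8.26 and 8.20 in control pools (0.69, SE 0.12, adjusted p = 0.167). Neither passed here. With the same mixture pools, Cytip was higher than with genistein alone (0.86, SE 0.12, adjusted p = 0.0424), where it measured 8.18 and 7.96. C4bpa, a chain of the complement inhibitor C4b-binding protein, had a difference of 0.65 (SE 0.17, adjusted p = 0.434), and its pools did not overlap.

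Kng2, a kininogen gene, measured 7.67 and 7.84 in mixture pools, against 6.08 and 6.09 in control pools (1.68, SE 0.34, adjusted p = 0.37). Genistein alone lay between them, at 7.01 and 7.08, and vinclozolin alone gave 5.88 and 5.82. Kng2 pools lay close together at PND50 but further apart in some groups at PND35. There they measured 7.18 and 5.97 with genistein alone and 6.45 and 5.49 with the mixture. In a limma fit to the 8 PND50 arrays alone Kng2 passed the test (adjusted p = 0.000137, against up to 0.508 in other settings). Retnlg, a resistin-like protein of leukocytes, was on the low side, at 7.45 and 7.41 in mixture pools, against 8.05 and 8.01 in control pools (-0.60, SE 0.12, adjusted p = 0.37). With vinclozolin alone it measured 7.43 and 7.39, as low as with the mixture.

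Mx2, an interferon-induced GTPase, measured 8.46 and 9.79 in mixture pools, against 7.50 and 7.60 in control pools (1.57, SE 0.39, adjusted p = 0.434). The mixture pools differed from each other by more than the lower one differed from the controls. Of the 25 interferon response genes tested, 0 passed, 20 had a positive fold change against 43.5% of all genes, and in 5 both mixture pools lay above both control pools, a share near the 16.8% of all genes. The median of the list was 0.185. Ifit1, an interferon-induced RNA-binding protein, measured 7.26 and 8.42 in mixture pools and 7.46 and 6.17 in control pools, which overlap. The interferon-induced Ifi44l had 0.69 (SE 0.26, adjusted p = 0.614) and the chemokine Cxcl10 had 0.98 (SE 0.45, adjusted p = 0.675). Cxcl10 measured 8.84 and 10.24 in mixture pools, against 8.638 and 8.498 in control pools, and with 1 pool left out its log2 fold change ran between 0.28 and 1.68. The list score, the mean of gene-centred values, was 0.13 and 0.71 in mixture pools, against 0.23 and -0.05 in control pools, and without the second mixture pool the median of the list was -0.012.

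T and natural killer cell markers had mostly positive fold changes. Of 14 tested genes among 21 listed, 0 passed, 12 had a positive fold change, and in 5 both mixture pools lay above the control pools, with 0 the other way, against 16.8% and 24.6% of all genes (median 0.09, or 0.08 to 0.175 with 1 pool left out). Klrd1, the natural killer receptor CD94, measured 6.51 in both mixture pools against 6.002 and 5.976 in control pools (0.52, SE 0.12, adjusted p = 0.411). Lck, the kinase of T cell receptor signalling, measured 7.04 and 7.33 against 6.87 and 6.70 in control pools (0.40, SE 0.10, adjusted p = 0.411). Cd3e, a chain of the T cell receptor complex, had 0.24 (SE 0.10) and the coreceptor gene Cd8a 0.25 (SE 0.09). The list score was 0.30 and 0.38 in mixture pools, against 0.22 and 0.18 in control pools.

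Of 20 chemokine genes, 15 had a positive fold change and 9 lay apart above the controls and 2 below, against 16.8% and 24.6% of all genes. The median was 0.101, and with 1 pool left out it ran between 0.057 (without the second control pool) and 0.163 (without the first mixture pool). Cxcl11, which attracts activated T cells, measured 6.76 and 7.89 in mixture pools, against 6.57 and 6.09 in control pools (0.99, SE 0.29, adjusted p = 0.509), and without the second mixture pool the fold change was 0.43. Of 19 macrophage genes, 5 had a positive fold change (median -0.099, or -0.01 without the first mixture pool and -0.173 without the second), with Cd14 at 0.64 and the chemokine receptor Cx3cr1 at 0.41 (SE 0.18) at its upper end. B cell and plasma cell genes had a median of 0.019 over 7 tested and mast cell genes one of 0.004 over 12. Histidine decarboxylase, encoded by Hdc and abundant in mast cells, measured 7.80 and 8.05 in mixture pools and 7.76 and 7.80 in control pools.

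The leading lower genes included amphiregulin, the EGF receptor ligand through which estrogen acts in duct growth. Areg measured 9.05 and 8.31 in mixture pools, against 9.61 and 9.82 in control pools, 0.487 of the control level (-1.04, SE 0.26, adjusted p = 0.434). The groups did not overlap, but the second mixture pool was the lower, and without it the log2 fold change was -0.67. Epiregulin, another EGF receptor ligand, encoded by Ereg, measured 6.96 and 6.78 against 7.33 and 7.34 in control pools (-0.46, SE 0.15, adjusted p = 0.539). The 9 other tested members of the EGF family list had fold changes between -0.09 and 0.21. Of all 11, 6 lay apart above the controls and 2, Areg and Ereg, below, against 16.8% and 24.6% of all genes (median 0.106). The receptor gene Egfr measured 10.44 and 10.33 in mixture pools, against 10.25 in both control pools, and Erbb3 measured 9.70 and 9.63 in mixture pools, against 9.46 and 9.48 in control pools. Their log2 fold changes were 0.13 (SE 0.07, adjusted p = 0.708) and 0.20 (SE 0.11, adjusted p = 0.719).

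Hormone receptors showed no difference past the test. Esr1, which encodes estrogen receptor alpha, measured 10.56 and 10.70 in mixture pools, against 10.44 and 10.34 in control pools (0.24, SE 0.13, adjusted p = 0.717). The progesterone receptor gene Pgr measured 9.66 and 9.59 in mixture pools and 9.88 and 9.51 in control pools, and its direction depended on which pool was left out. The prolactin receptor gene Prlr had -0.07 (SE 0.14). Esr2 lay under the filter. Of 11 receptors tested the median was 0.002.

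Hormone targets were mixed. Of 15 estrogen response genes, 6 had a positive fold change, 2 lay apart above and 5 below the controls, shares not far from the 43.5%, 16.8% and 24.6% of all genes. The median was -0.094, or -0.029 without the second mixture pool. After Areg the smallest p was that of Wnt4, a ligand downstream of progesterone, at 6.86 and 6.84 in mixture pools, against 7.07 and 7.13 in control pools (-0.25, SE 0.11, adjusted p = 0.664). Of 15 androgen response genes, 6 had a positive fold change, 3 lay apart above and 6 below, against the same shares of all genes (median -0.109, or -0.054 without the first control pool). Fkbp5, a cochaperone of steroid receptors induced by androgens, glucocorticoids and progestins, measured 7.58 and 7.33 in mixture pools, against 8.31 and 8.19 in control pools (-0.80, SE 0.25, adjusted p = 0.539). In the same list the protease gene Tmprss2 had 0.47 (SE 0.19, adjusted p = 0.637) and the stress-responsive Ndrg1 had 0.33 (SE 0.13, adjusted p = 0.634). The list thus held genes on both sides of 0.

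The promoters of the leading genes were searched on both strands for estrogen and androgen response motifs. A promoter was listed for 11 higher and 11 lower leading genes. Inverted repeats of GGTCA (estrogen response) and of AGAACA (androgen response), each spaced by NNN, occurred in 0 promoters of either group, and in 0.0255% and 0.00728% of all promoters. The single estrogen response site AGGTCA occurred in 1 higher gene, Kng2, and in 3 lower genes, Gpx2, Mrgprg and Retnlg, against 15.7% of all promoters. The single androgen response site AGAACA occurred in 0 higher genes and in 1 lower gene, Areg, against 20.1% of all promoters. Every inverted repeat of AGAACA also holds that single site, and a match or its absence describes only the letters of this window.

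Genes of fat synthesis had mostly negative fold changes. Of 16 fatty acid synthesis genes, 0 passed, 1 had a positive fold change, and in 11 both mixture pools lay below both control pools against 24.6% of all genes (median -0.264). Scd2, a stearoyl-CoA desaturase, measured 10.17 and 10.18 in mixture pools, against 10.88 and 10.98 in control pools (-0.76, SE 0.19, adjusted p = 0.434). Acly, the citrate lyase that supplies acetyl-CoA, had -0.65 (SE 0.40, adjusted p = 0.757) and the elongase Elovl5 -0.29 (SE 0.11, adjusted p = 0.619). Acacb, the acetyl-CoA carboxylase that regulates mitochondrial fat oxidation, was the exception at 0.43 (SE 0.21, adjusted p = 0.693). The list score was -0.00 and -0.20 in mixture pools, against 0.20 and 0.12 in control pools, and without the second mixture pool the median was -0.149. Against the same control pools, vinclozolin alone at PND50 had a list median of -0.188 and genistein alone one of -0.024. Beside it, the white adipocyte marker list had scores of -0.07 and -0.19 in mixture pools and 0.01 and -0.12 in control pools, and its part in the result was not tested.

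Related metabolic genes stood as follows. Pdk4, a kinase that shuts pyruvate dehydrogenase when fat is burned, measured 11.80 and 11.71 in mixture pools, against 10.47 and 10.82 in control pools (1.11, SE 0.26, adjusted p = 0.37). Of 12 cholesterol synthesis genes, 0 had a positive fold change and 7 lay apart below, against 24.6% of all genes (median -0.103, or -0.046 without the first control pool). For this list vinclozolin alone at PND50 had a median of -0.178 against the controls, below that of the mixture, and genistein alone one of -0.07. Sc5d, a late enzyme of that pathway, measured 10.03 and 10.04 in mixture pools, against 10.43 and 10.33 in control pools (-0.35, SE 0.13, adjusted p = 0.597). Of 24 oxidative phosphorylation genes, 2 had a positive fold change and 16 lay apart below, against 24.6% of all genes (median -0.102, or -0.059 without the second mixture pool). Sdhb, a subunit of complex II, had -0.17 (SE 0.07) and the ATP synthase gene Atp5po -0.26 (SE 0.12). The resistin gene Retn, made by rat fat cells, had -0.55 (SE 0.18, adjusted p = 0.539).

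All 23 tested proliferation genes had a negative fold change, and 0 passed the test. In 15 both mixture pools lay below both control pools, against 24.6% of all genes, and the median was -0.49. The mitotic cyclin gene Ccna2 measured 7.78 and 7.90 in mixture pools, against 8.14 and 8.88 in control pools (-0.67, SE 0.25, adjusted p = 0.614). Cdc20, an activator of the anaphase-promoting complex, measured 7.92 and 7.88 against 8.16 and 8.89 in control pools (-0.63, SE 0.24, adjusted p = 0.619). Kif11, a spindle motor, had -0.57 (SE 0.20) and the thymidylate synthase gene Tyms -0.30 (SE 0.10). In each of these genes the second control pool was the high one, and without it the fold change of Ccna2 was -0.30 and that of Cdc20 -0.26. Ect2, an exchange factor needed for cytokinesis, measured 6.88 and 7.01 in mixture pools, against 7.32 and 8.20 in control pools. Prr11, a cell cycle gene, measured 6.65 and 6.59 in mixture pools, against 6.91 and 7.69 in control pools.

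**Figure D3:**
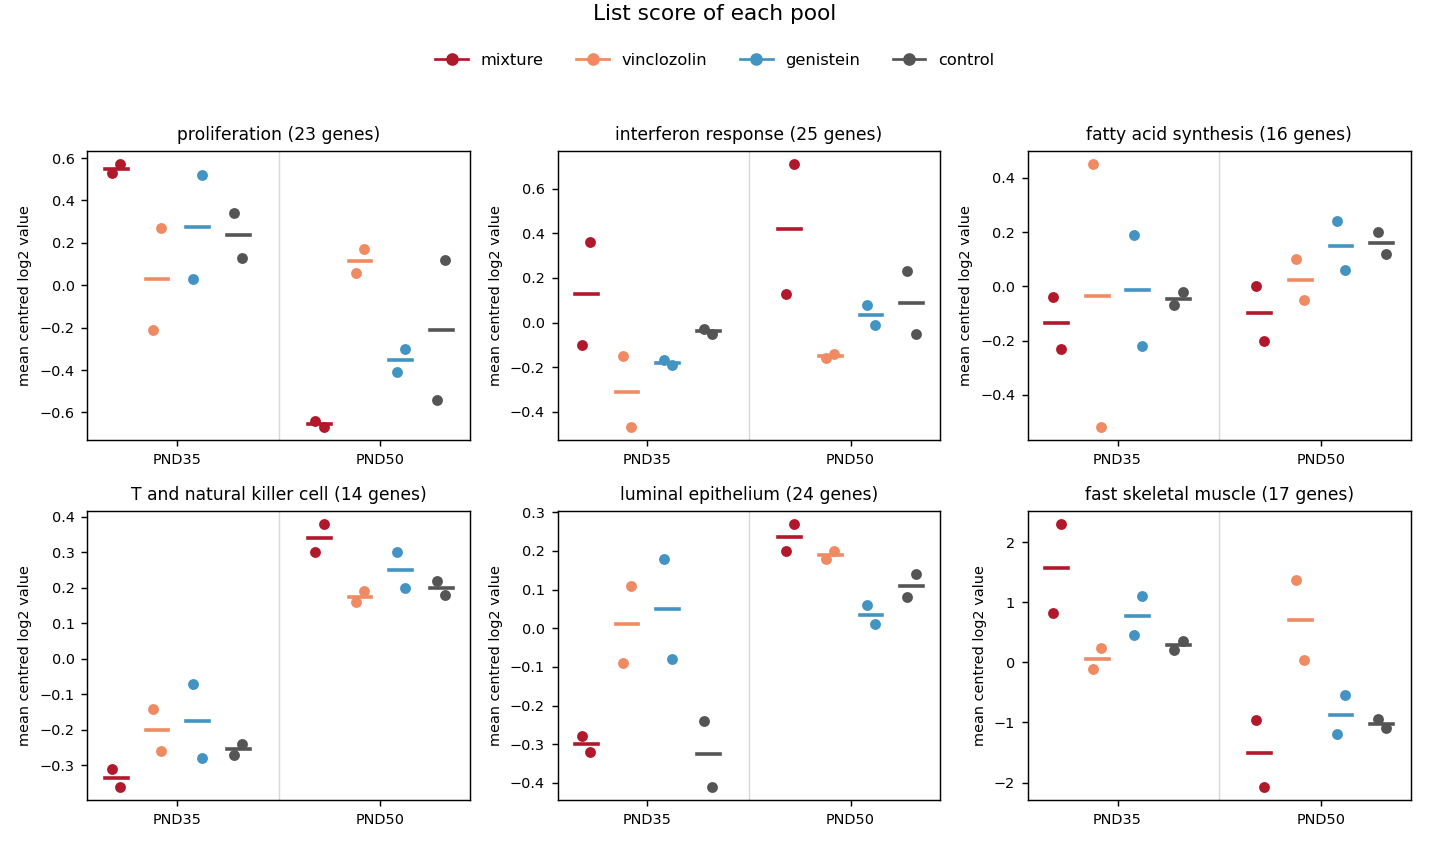
Score of 6 gene lists in each of the 16 pools, as the mean over the list of log2 values centred on each gene's mean over all pools, with groups ordered as mixture, vinclozolin, genistein and control within an age. Points are pools and bars the means of 2 pools. At PND50 the proliferation score is -0.64 and -0.67 in mixture pools, against -0.54 and 0.12 in control pools, and the interferon score is 0.13 in 1 mixture pool and 0.71 in the other.

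The size of the proliferation difference rested on 1 control pool. The list score was -0.64 and -0.67 in mixture pools, against -0.54 and 0.12 in control pools. Without the second control pool the median of the list was -0.112, and without the first it was -0.871. Against the controls, vinclozolin alone at PND50 had a median of 0.396 and genistein alone one of -0.141, and at PND35 the mixture had one of 0.353. Interaction tests of the age difference gave Tyms -0.68 (SE 0.14, adjusted p = 0.207), Kif11 -0.99 (SE 0.29, adjusted p = 0.291) and Cdc20 -1.07 (SE 0.34, adjusted p = 0.315), and none passed.

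Luminal epithelial markers had mostly positive fold changes. Of 24 luminal genes tested, 0 passed, 17 had a positive fold change, 11 lay apart above the controls against 16.8% of all genes, and 0 lay apart below. The median was 0.10, or 0.054 without the first control pool and 0.167 without the second. Elf3, an epithelial transcription factor, measured 7.51 and 7.67 in mixture pools, against 7.04 and 7.13 in control pools (0.50, SE 0.13, adjusted p = 0.434). The adhesion molecule gene Epcam measured 9.96 and 10.04 against 9.68 and 9.70 in control pools (0.31, SE 0.11, adjusted p = 0.614). Kit, a receptor of luminal progenitors, had 0.45 (SE 0.17) and the tight junction gene Cldn7 0.33 (SE 0.15). The luminal score was 0.20 and 0.27 in mixture pools, against 0.08 and 0.14 in control pools, without overlap. Its part in the differences of Met and of the transporters, which epithelium expresses, was not tested. Basal and myoepithelial genes had a median of -0.066 over 15 tested, and the basal keratin Krt14 had -0.16 (SE 0.27). The lowest member of that list, at -0.50, was Acta1, a skeletal muscle actin gene that the fast skeletal muscle list also holds. Acta1 is no basal marker, yet it is counted in the median of -0.066.

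Milk genes pointed both ways. Of 12 milk protein genes, 6 had a positive fold change (median -0.001). Lalba had the smallest p of the list (0.52, SE 0.12, adjusted p = 0.411), without overlap of the pools given above. Csn2, beta-casein, measured 9.07 and 7.91 in mixture pools and 8.07 and 10.45 in control pools, so the pools of each group differed by more than the groups. Wap, whey acidic protein, measured 8.56 and 8.47 in mixture pools and 8.10 and 8.94 in control pools (0.00, SE 0.40). Muc15, a mucin of the milk fat globule membrane, measured 10.33 and 10.41 in mixture pools, against 9.91 and 10.03 in control pools (0.40, SE 0.13, adjusted p = 0.539). Elf5, the transcription factor of alveolar cells, had 0.17 (SE 0.13).

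Other tissues carried over with the gland were also read. Myh4, a fast myosin of skeletal muscle, measured 7.37 and 5.63 in mixture pools and 6.96 and 7.02 in control pools. Fast skeletal muscle genes had a score of -0.96 and -2.07 in mixture pools, against -0.95 and -1.09 in control pools, and the median over 17 genes was -0.492, or 0.046 without the second mixture pool. With the muscle score of each pool as a covariate 0 genes passed, and Met then had 0.52 (adjusted p = 0.0697). Of 8 erythroid genes, 4 lay apart below, against 24.6% of all genes. Their median was -0.172, and it was -0.081 without the second mixture pool, -0.089 without the second control pool and -0.287 without the first control pool. The globin gene Hbb measured 11.06 and 10.44 in mixture pools, against 11.45 and 11.46 in control pools (-0.71, SE 0.19, adjusted p = 0.47), and Alas2, the erythroid start of haem synthesis, had -0.60 (SE 0.23, adjusted p = 0.619). In hair follicle genes the median was 0.073 over 18 tested, and in skin keratinocyte genes -0.024 over 8. The inner root sheath keratin Krt25 measured 5.25 and 5.23 in mixture pools and 4.95 and 5.06 in control pools, under the filter value of 5.661. It came past the filter through the vinclozolin pools at PND35, which measured 10.48 and 10.59.

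**Figure D4:**
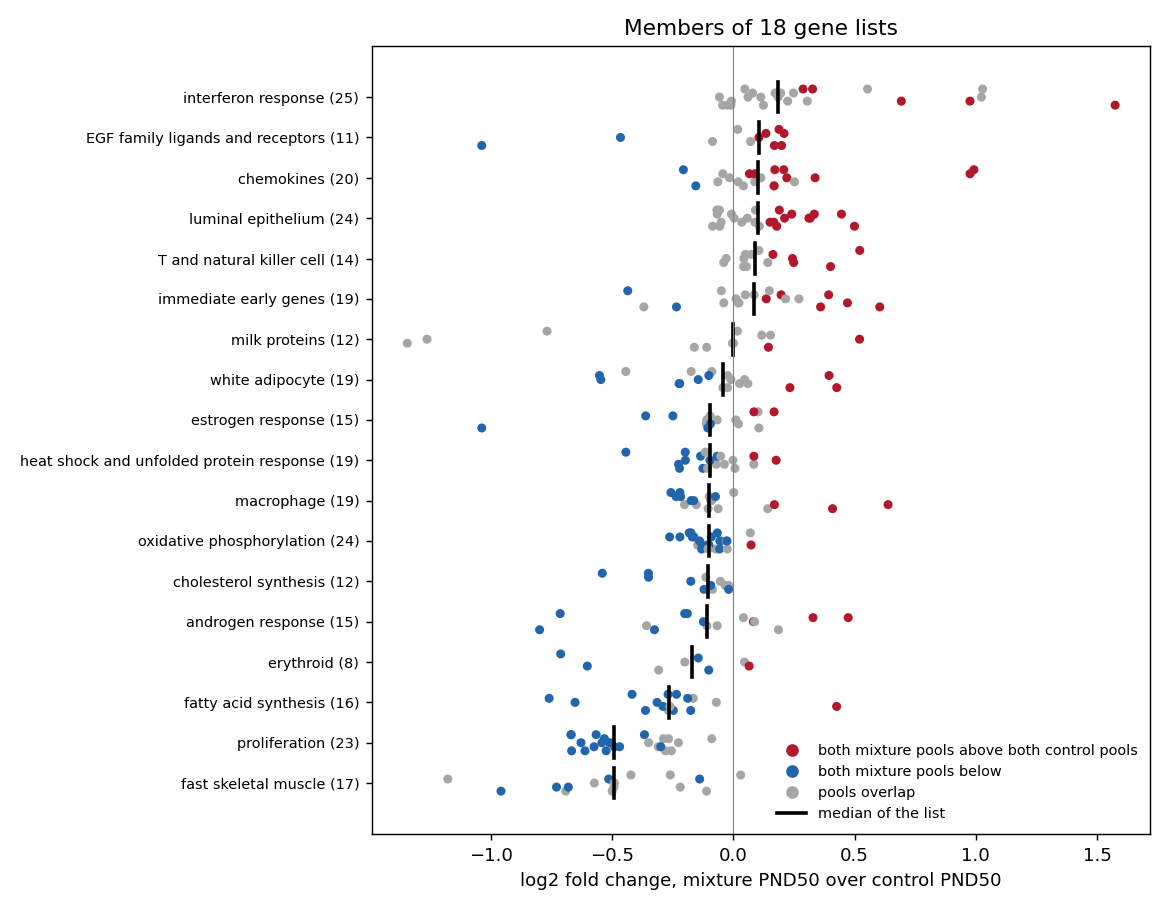
Log2 fold change, mixture over control at PND50, of every tested member of 18 gene lists, with the number of members in brackets and the list median as a black bar. Red members have both mixture pools above both control pools and blue ones below; the proliferation, fatty acid synthesis and oxidative phosphorylation members are blue in 15 of 23, 11 of 16 and 16 of 24 cases, against 24.6% of all genes, and no member of any list passed the test.

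The remaining leading genes have varied roles. Grik3, a kainate receptor subunit, measured 8.04 and 8.24 in mixture pools, against 7.59 and 7.17 in control pools (0.76, SE 0.17, adjusted p = 0.37). Cpm, a carboxypeptidase of the cell surface, measured 9.034 and 9.003 in mixture pools, against 8.30 and 8.37 in control pools (0.68, SE 0.16, adjusted p = 0.37). With vinclozolin alone Cpm measured 8.96 and 8.93, level with the mixture. The same holds for Chrdl2, an antagonist of bone morphogenetic proteins, at 7.43 and 7.79 in mixture pools, 7.68 and 7.98 with vinclozolin alone and 6.89 and 7.05 in control pools. Mrgprg, a receptor of sensory neurons in mice, measured 6.89 and 6.48 in mixture pools, 6.45 and 6.32 with vinclozolin alone and 7.25 and 8.34 in control pools. Gpx2, a glutathione peroxidase of epithelia, measured 6.27 and 6.32 in mixture pools, against 6.59 and 7.44 in control pools (-0.72, SE 0.23, adjusted p = 0.539). None of these differences from the control passed the test.

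Which differences belong to the combination was asked by setting the mixture against each single compound and against the sum of both. These comparisons reuse the mixture pools in which the leading genes were found. For those genes they are not independent of the comparison with the control. Against genistein alone 3 genes were higher (0.0254%) and 0 lower: Met, Slc5a8 and Cytip, and 999 genes stood at an unadjusted p below 0.05 (8.47%). Against vinclozolin alone 2 genes were higher, Met and Slc4a4, and 2 were lower, Slc5a1 and C9h2orf72 (0.0339% together), with 1342 at an unadjusted p below 0.05 (11.4%). The fast skeletal muscle score was 1.37 and 0.04 with vinclozolin alone, against -0.96 and -2.07 in mixture pools. With the muscle score as a covariate 0 genes passed in this comparison, and the part of muscle in the unadjusted count was not tested. C9h2orf72 measured 6.44 and 6.67 in mixture pools, against 7.54 and 7.79 with vinclozolin alone (-1.10, SE 0.14, adjusted p = 0.0238). The mixture effect minus the sum of the 2 single effects passed for 0 genes in limma, with 768 at an unadjusted p below 0.05 (6.51%) and a smallest adjusted p of 0.554. For Met this departure from the sum was 0.49 (SE 0.09, adjusted p = 0.755), for Slc5a8 1.11 (SE 0.27, adjusted p = 0.755) and for Areg -0.58 (SE 0.37, adjusted p = 0.813).

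The single compounds against the same control pools gave 0 genes in limma, for genistein with 307 at an unadjusted p below 0.05 (2.6%) and for vinclozolin with 713 (6.04%). These comparisons share the control pools with the mixture, so their values are only set side by side. Reg3b had 1.83 (SE 0.29) with the mixture, 0.20 (SE 0.29) with genistein and -0.00 (SE 0.29) with vinclozolin. Kng2 had 1.68, 0.97 and -0.23 (SE 0.34 each) in that order. Retnlg had -0.60, -0.32 and -0.62 (SE 0.12 each). Mrgprg had -1.11, 0.39 and -1.41 (SE 0.40 each), and Pdk4 1.11, 0.34 and 0.48 (SE 0.26 each).

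**Figure D5:**
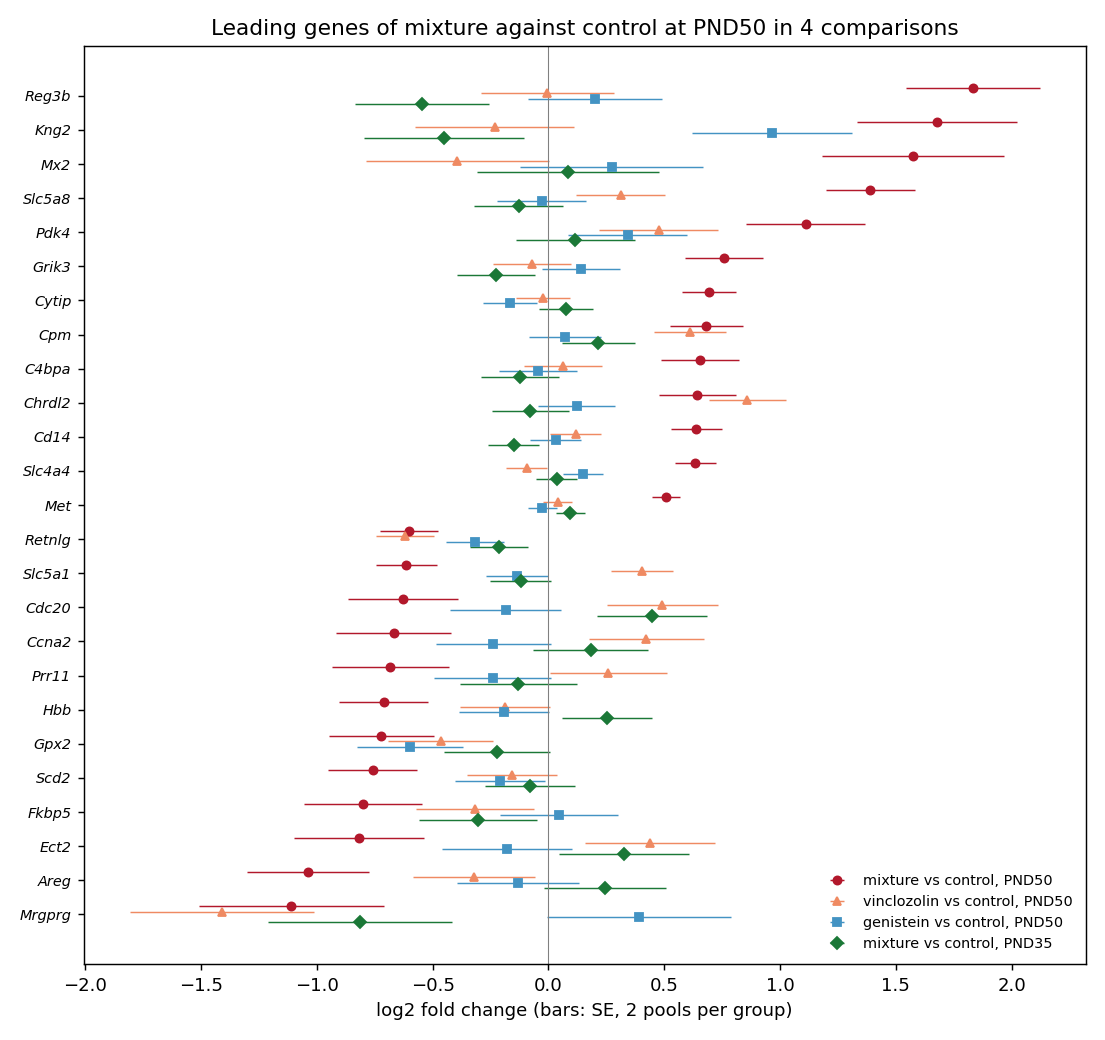
Log2 fold change with its SE of Met and the 24 other leading genes in 4 comparisons with 2 pools per group: mixture, vinclozolin alone and genistein alone against control at PND50, and mixture against control at PND35. Met, Slc5a8, Slc4a4, Reg3b and Cd14 have their largest fold change with the mixture at PND50, while Cpm, Chrdl2, Retnlg and Mrgprg have values with vinclozolin alone close to those of the mixture.

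The effect of the mixture at PND50 was also set against its effect at PND35, where mixture and control differed in 0 genes in limma (1799 at an unadjusted p below 0.05, 15.3%). The difference between both effects passed for 0 of the genes tested (1435 at an unadjusted p below 0.05, 12.2%, smallest adjusted p = 0.139). At PND35 the fast skeletal muscle score was 0.83 and 2.31 in mixture pools, against 0.21 and 0.36 in control pools. The part of muscle in both unadjusted counts was not tested. Slc5a8 measured 7.75 and 7.25 in mixture pools at PND35 and 7.57 and 7.68 in control pools, a difference between the effects of 1.52 (SE 0.27, adjusted p = 0.205). Reg3b measured 5.23 and 4.91 in mixture pools at PND35, below its controls at 5.60 and 5.63 (2.38, SE 0.41, adjusted p = 0.205). Lalba, with 11.39 and 11.43 in mixture pools at PND35 against 11.70 and 11.83 in control pools, had opposite signs at the 2 ages (0.88, SE 0.17, adjusted p = 0.207). Without the filter 2 genes passed (0.014%), Reg3g at 2.34 (SE 0.26, adjusted p = 0.0137) and the olfactory receptor gene Olr995 at 1.19 (SE 0.14, adjusted p = 0.0137), both named after their values were seen.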

How the data were processed

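The 16 arrays, 2 pools for each of 8 groups, were grouped by their titles. The authors' deposited table gives 1 value per array for 27342 probe sets, read as log2 intensities from their range (2.2 to 13.95). How they were background-corrected, normalized and summarized, and the base of the log, is not given in the sources used here. Array medians lay between 7.05 and 7.145, and nothing further was normalized. The platform's annotation gave 1 symbol to 15097 probe sets, several to 323 and none here to 11922, and 15067 matched RefSeq's GRCr8 gene table. The probe set of highest mean was kept per symbol, and genes under the 25th percentile of probe set means were left out.

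Log2 values were fitted with limma 3.58.1 (R 4.3.3), 1 mean per group over all 16 arrays, and adjusted by Benjamini and Hochberg's method. Checks on simulated data used the same code. Alternatives were no filter and a 50th percentile filter, median centring, quantile normalization, averaged probe sets, every probe set tested singly, array weights, a replicate block, a robust trend, fewer arrays, a muscle covariate, other thresholds and each pool left out. Promoters came from RefSeq (GRCr8), aligned with Biopython 1.88. Figures used matplotlib 3.10.9 (Python 3.11.15, pandas 2.3.3).

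Named genes are those past the test, else the 12 of smallest p in each direction with at least a 1.5-fold change and pools apart, up to 4 of smallest p per list, and a panel. In the panel Greb1 has no named probe set here and Esr2 lay under the filter. Members, lists and rule were chosen with earlier results of these data known. Reg3g, Reg3a, Reg1a, Reg4, Hgf, Or8b51 and Olr995 were chosen after their values were seen.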

Additional observations from a re-analysis of the deposited data

Results flagged for a closer look

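The mixture effect on Reg3g, which encodes a secreted bactericidal lectin, differed between the ages by 2.34 on the log2 scale (SE 0.26, adjusted p = 0.0137 by limma over all named genes without the filter). At PND50 Reg3g measured 7.46 and 7.41 in mixture pools, against 5.21 and 5.45 in control pools, and at PND35 it measured 5.00 and 5.01 in mixture pools, against 5.23 and 5.25 in control pools. Of 8 fits that each leave out 1 pool of these groups, 1 kept the call, and the adjusted p ran between 0.0177 and 0.138. Adjusted for the muscle score, the difference was 2.01 (adjusted p = 0.362). Reg3g lies under the filter on low values, and the comparison was added after its values were seen.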

How the results depend on the processing

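The count of genes past the threshold between mixture and control at PND50 was 1 as reported and 1 with averaged probe sets. It was 6 without the filter, 3 with the 50th percentile filter, 2 with quantile normalization, 2 with median centring, 0 over all probe sets, 7 with array weights, 2 with a robust trend, 6 on PND50 arrays only, 5 on the groups of the comparison only, 0 with the muscle covariate, 3 at an adjusted p of 0.10 and 0 at 1.5-fold or more. With each pool left out in turn it was 0 to 0. The replicate block gave 4 genes (Met, Slc5a8, Slc4a4 and Chrna1); the labels do not pair the pools, same-numbered mixture and control pools at PND50 deviated with r = -0.034, and over all pairs of groups r ran between -0.366 and 0.301. The age difference had 2 genes without the filter and 0 to 8 with a pool left out, 8 of them without the first mixture pool at PND35. Against genistein alone there were 5 genes without the filter, 0 over all probe sets, 1 on PND50 arrays only, 1 on the groups only, 0 with the muscle covariate and 0 to 1 with a pool left out. Against vinclozolin alone there were 7 with array weights, 9 on PND50 arrays only, 108 on the groups only, 0 with the muscle covariate and 0 to 2 with a pool left out. The departure from the sum had 1 gene with the replicate block and 0 to 1 with a pool left out, 1 of them without the first genistein pool. Direction turned in a few genes that did not pass: with a pool left out, the log2 fold change ran between -0.25 and 0.12 for Pgr, -1.96 and 0.42 for Csn2, -0.42 and 0.42 for Wap, -0.33 and 0.0099 for Krt14, -1.36 and 0.38 for Myh4 and -0.0363 and 0.0886 for Adipoq, and Myh4 had 0.0195 with the muscle covariate. Of 1390 values of single genes under other settings, 1332 kept their direction and side of the threshold, 27 came to pass, 22 no longer passed and 9 turned; of 581 list medians 45 moved beyond the spread between pools. The cause of these shifts was not tested. Median centring and quantile normalization put the median of all genes at 0 and -0.004, against -0.017. The scale holds no read depth, and Reg3g and Reg3a in control pools lie under the filter value of 5.661.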

Other observations

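Nr1d1, the clock repressor REV-ERB alpha, measured 10.13 and 10.03 in mixture pools, against 8.51 and 8.75 in control pools (1.44, SE 0.58, adjusted p = 0.64). In a limma fit to the 4 arrays of the comparison alone it passed the test (adjusted p = 0.0153). This was 1 of 12 other settings that keep every mixture and control pool, and the adjusted p in the rest ran up to 0.703. With 1 pool left out its log2 fold change ran between 1.32 and 1.56. Its levels with genistein alone (9.07 and 10.21) and vinclozolin alone (9.86 and 10.47) also lay above both control pools. Cry1, a repressor of the clock, measured 7.20 and 7.35 in mixture pools, against 7.91 and 7.67 in control pools, and Per2, its partner, had -0.43 (SE 0.23). Of 14 clock genes, 5 lay apart above and 4 below the controls, against 16.8% and 24.6% of all genes (median -0.04, or -0.084 to 0.053 with 1 pool left out), and the hour of sampling is not given in the labels.

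Of 19 immediate early genes, 14 had a positive fold change, against 43.5% of all genes (median 0.086, or 0.159 without the first control pool). Zfp36, which destabilises cytokine mRNA, measured 10.27 and 10.42 in mixture pools, against 10.03 and 9.87 in control pools (0.39, SE 0.12, adjusted p = 0.539). Fos had 0.47 (SE 0.19), Junb 0.36 (SE 0.14) and the stress-induced Atf3 0.60 (SE 0.26), and none passed. With 1 pool left out Fos ran between 0.14 and 0.80 and Atf3 between 0.36 and 0.85. Of 19 heat shock and unfolded protein response genes, 4 had a positive fold change and 9 lay apart below, against 24.6% of all genes (median -0.096). The chaperone gene Hsph1 measured 7.90 and 7.83 in mixture pools, against 8.29 and 8.32 in control pools (-0.44, SE 0.13, adjusted p = 0.539).

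A list of acute phase and mucosal defence genes was written after Reg3b had been seen. Of 17 tested members, 13 had a positive fold change, 11 lay apart above and 1 below the controls, against 16.8% and 24.6% of all genes (median 0.144). The list is no independent evidence, having been chosen with Reg3b known. The fibrinogen chain gene Fgg had 1.30 (SE 0.48), the iron-binding lipocalin Lcn2 0.31 (SE 0.09), Ptx3 0.29 (SE 0.09) and Stat3, the transcription factor of this response, 0.32 (SE 0.09), and none passed. Of 13 DNA methylation and chromatin genes 2 had a positive fold change (median -0.095, or -0.052 without the first mixture pool). Uhrf1, which guides maintenance methylation in dividing cells, had -0.49 (SE 0.22, adjusted p = 0.664), or -0.14 to -0.84 with 1 pool left out.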
